A study of Mus musculus with 18 samples.

Results

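Collagen genes were described across 18 RNA sequencing libraries from mouse cochlea. All protein-coding genes with a symbol of the form Col, number, a, number were taken if 2 or more of the libraries showed a level of 1 TPM or above. TPM is transcript abundance per length, scaled to a fixed total per library. Of 44 such genes in the files, 36 met the minimum, against 20463 of all 47729 gene identifiers. Of the 36, 12 reached 1 TPM in all 18 libraries, and 13 did so in 5 libraries or fewer. Just inside the minimum lay Col5a3, Col15a1, Col4a4, Col6a3 and Col28a1, each with 2 libraries at 1 TPM. Just outside lay Col4a3, with 1 such library. The other genes left out were Col24a1, Col6a5, Col6a6, Col8a1, Col10a1, Col19a1 and Col17a1.

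The study compared native hair cells with native supporting cells and followed LCP cultures through differentiation. There were 9 groups of 2 libraries. Sorted LCP cultures were sampled on day 10 (D10) and day 0 (D0) of differentiation, and unsorted LCP cultures on days 0, 2, 4 and 10 (D0, D2, D4, D10). The native cells were sorted from postnatal day 2 (P2) cochlear sensory epithelium as Atoh1, Lgr5 and Sox2 sorts. The cultures are labelled as primary cochlear organoids. The sources used here do not say what LCP stands for, which gate sorted the cultures, or which alleles and strain the mice of these libraries carried. A treatment protocol in the labels names tamoxifen, Sox2-CreER and beta-catenin, but it matches no library title. Per the labels, epithelium was separated from mesenchyme and neurons before extraction, and each sample came from both ears of 1 pup. The p-values measure only the spread between such samples, pooled over the 9 groups. That spread includes date, because the 2 libraries of each group differ in extraction and sequencing date.

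Collagens are secreted or membrane-bound proteins whose chains wind together into a helix made of Gly-X-Y repeats. Fibrillar chains of types I, III and V build the fibres of connective tissue. Type IV chains form the sheet of the basement membrane, which lies under every epithelium. In the cochlea, chains of types II, IX and XI form fibrils of the tectorial membrane, the extracellular sheet above the hair cells, and are made by the sensory epithelium and its neighbours. Loss-of-function variants in several of these chains cause hearing loss in humans and mice. The 36 genes were grouped as 7 interstitial fibrillar, 6 inner-ear matrix (types II, IX and XI), 8 basement membrane, 4 beaded filament (type VI), 1 short chain network, 5 fibril-associated and 3 transmembrane genes and 2 others.

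Read depth is unknown, because TPM values keep none. Replicates correlated with Pearson's r of 0.90 to 0.95 across 20463 genes, and each library had 14381 to 16713 genes at 1 TPM. Summed TPM of 8 hair cell markers was 873 to 1092 in sorted LCP D10, 5.61 to 19.1 in sorted LCP D0 and 1105 to 1539 in the Atoh1 sort, but also 464 to 833 in the Lgr5 and Sox2 sorts. All 8 supporting cell markers reached 1 TPM in every native library, the Atoh1 sort included, and 5 to 7 of them did so in the cultures. Replicate numbers follow the sequencing date in the labels, with more than 1 date among replicate 1 libraries. A fit with the replicate number as a block is therefore also given where it changes a call. In these bulk samples, fewer cells of a type and less RNA per cell cannot be told apart.

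The inner-ear matrix genes made up most of the collagen transcripts in every library. Their share of the summed collagen TPM was 65.3 and 67.9% in sorted LCP D10 and 83.4 and 88.9% in sorted LCP D0. In unsorted LCP it was 86.6 and 80.6% at D0, 91.8 and 87.0% at D2, 91.2 and 84.2% at D4, and 85.2 and 79.1% at D10. In native cells it was 80.7 and 74.0% in the Atoh1 sort, 92.3 and 90.5% in the Lgr5 sort, and 87.8 and 79.2% in the Sox2 sort. The lowest shares were thus those of sorted LCP D10. Basement membrane genes took 3.70 to 13.5% of collagen TPM across all libraries. Interstitial fibrillar genes took 9.44 and 12.6% in the Atoh1 sort, 1.66 and 2.29% in the Lgr5 sort, and 4.42 and 7.99% in the Sox2 sort. In the 12 culture libraries they took 0.41 to 5.36%, the highest of these in sorted LCP D10, where the total was lowest. The class was mostly Col27a1 in sorted LCP D10, at 6.98 and 20.65 TPM, and its other members did not exceed 0.49 TPM there.

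The total collagen level also varied between groups. Summed collagen TPM was 295 and 392 in sorted LCP D10, against 1668 and 1306 in sorted LCP D0. In unsorted LCP it was 2768 and 1312 at D0, 5169 and 1822 at D2, 4529 and 1605 at D4, and 1198 and 849.8 at D10. In native cells it was 1532 and 897 in the Atoh1 sort, 6394 and 2699 in the Lgr5 sort, and 4014 and 2416 in the Sox2 sort. The highest library, of the Lgr5 sort, held 0.64% of its transcripts in collagens, and the lowest, of sorted LCP D10, 0.03%. Replicate 1 was above replicate 2 in 8 of the 9 groups, all but sorted LCP D10.

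**Figure D1:**
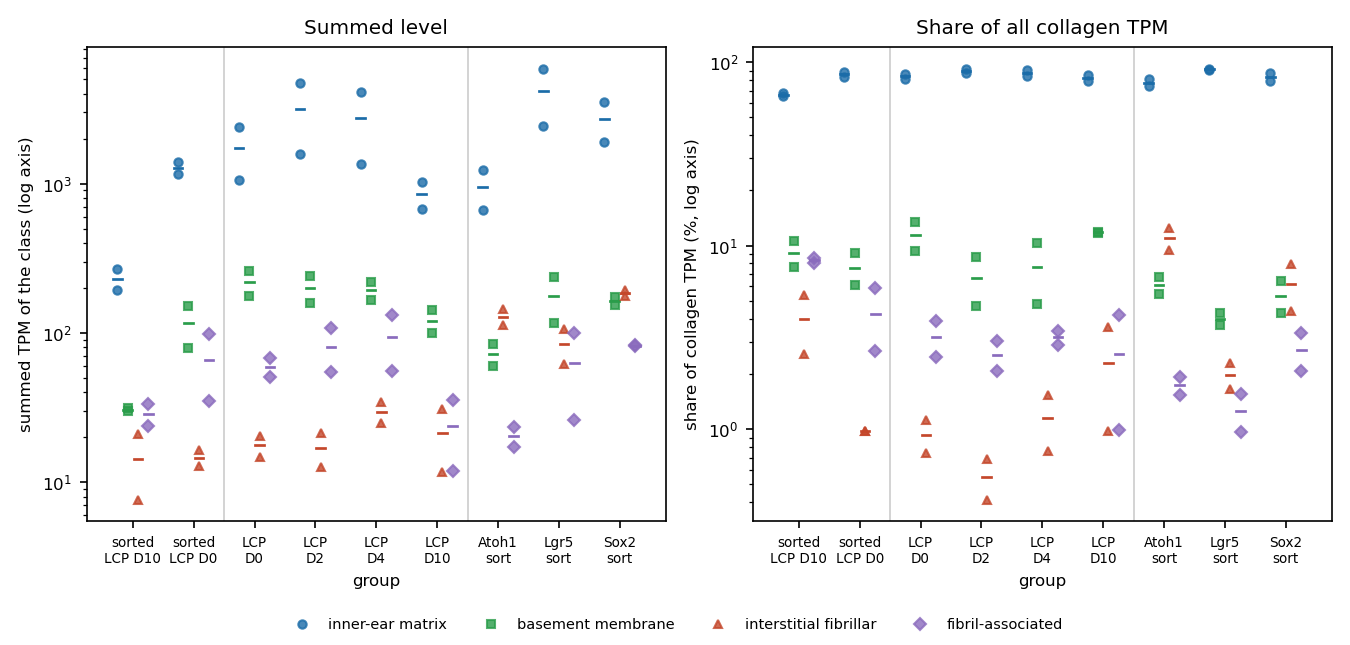
Summed TPM (left, log axis) and share of all collagen TPM (right, log axis) of the 4 largest collagen classes in each group. Points are the 2 libraries of a group and short lines their mean. The inner-ear matrix class lies above the other classes in every group, at 192 and 266 TPM in sorted LCP D10, and interstitial fibrillar genes lie above 60 TPM only in the 3 native sorts.

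The inner-ear matrix class held the 5 most abundant collagen genes on average, led by Col9a2, Col2a1 and Col9a3. Col9a2, a chain of the fibril-surface collagen IX, had 101 and 148 TPM in sorted LCP D10 and 628 and 464 TPM in sorted LCP D0. The unsorted cultures had 455 and 360.0 TPM at D0, 1182 and 774 TPM at D2, 1693 and 653 TPM at D4 and 479 and 299 TPM at D10. Among the native sorts it had 337 and 149 TPM in the Atoh1 sort, 1264 and 494 TPM in the Lgr5 sort and 896 and 538 TPM in the Sox2 sort. The 2 sorted LCP D10 libraries were the lowest for Col9a2, with replicate 2 of the Atoh1 sort just above them.

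Col2a1, the chain of the main cartilage and tectorial membrane fibril, had 13.1 and 16.6 TPM in sorted LCP D10 and 205 and 170.2 TPM in sorted LCP D0. Without sorting, the cultures had 1309 and 293 TPM at D0, 2367 and 272 TPM at D2, 1099 and 150.2 TPM at D4 and 143 and 41.7 TPM at D10. The native levels were 279 and 229.7 TPM in the Atoh1 sort, 1899 and 605 TPM in the Lgr5 sort and 795 and 396 TPM in the Sox2 sort. In the unsorted cultures replicate 1 was above replicate 2 at every time, by the most at D2. At D2 replicate 1 was above and replicate 2 below its D0 value, and at D4 both were below their D0 and D2 values. At D10 both replicates were below their D0, D2 and D4 values.

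Col9a3, the partner chain of Col9a2, had 23.2 and 25.6 TPM in sorted LCP D10 and 311 and 330.5 TPM in sorted LCP D0. Cultures that were not sorted had 258 and 184 TPM at D0, 515 and 306 TPM at D2, 582 and 179 TPM at D4 and 238 and 72.6 TPM at D10. Its P2 levels were 425 and 166 TPM in the Atoh1 sort, 1748 and 869.6 TPM in the Lgr5 sort and 1201 and 706 TPM in the Sox2 sort. The Lgr5 and Sox2 sorts held the 4 highest Col9a3 libraries. Col9a1, the chain that carries the globular end of collagen IX, had 29.1 and 29.1 TPM in sorted LCP D10 and 154 and 130.0 TPM in sorted LCP D0. The unsorted cultures had 194 and 148 TPM at D0, 276 and 126 TPM at D2, 279 and 204 TPM at D4 and 50.9 and 94.4 TPM at D10, and native cells had 129 and 57.6 TPM in the Atoh1 sort, 543 and 262 TPM in the Lgr5 sort and 430.3 and 168 TPM in the Sox2 sort. Col9a1 thus had its lowest levels in sorted LCP D10. Col11a1, which sets the core of collagen II fibrils together with Col11a2, had 5.86 and 5.32 TPM in sorted LCP D10 and 30.9 and 27.2 TPM in sorted LCP D0. Without sorting, the cultures had 57.5 and 32.2 TPM at D0, 93.3 and 26.96 TPM at D2, 78.1 and 31.3 TPM at D4 and 39.01 and 25.5 TPM at D10, and native cells had 9.01 and 3.86 TPM in the Atoh1 sort, 86.2 and 25.4 TPM in the Lgr5 sort and 40.98 and 17.4 TPM in the Sox2 sort. Sorted LCP D10 and the Atoh1 sort were the lowest groups for Col11a1. Col11a2 ran from 19.6 TPM, in sorted LCP D10, to 397 TPM, in LCP D4.

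**Figure D2:**
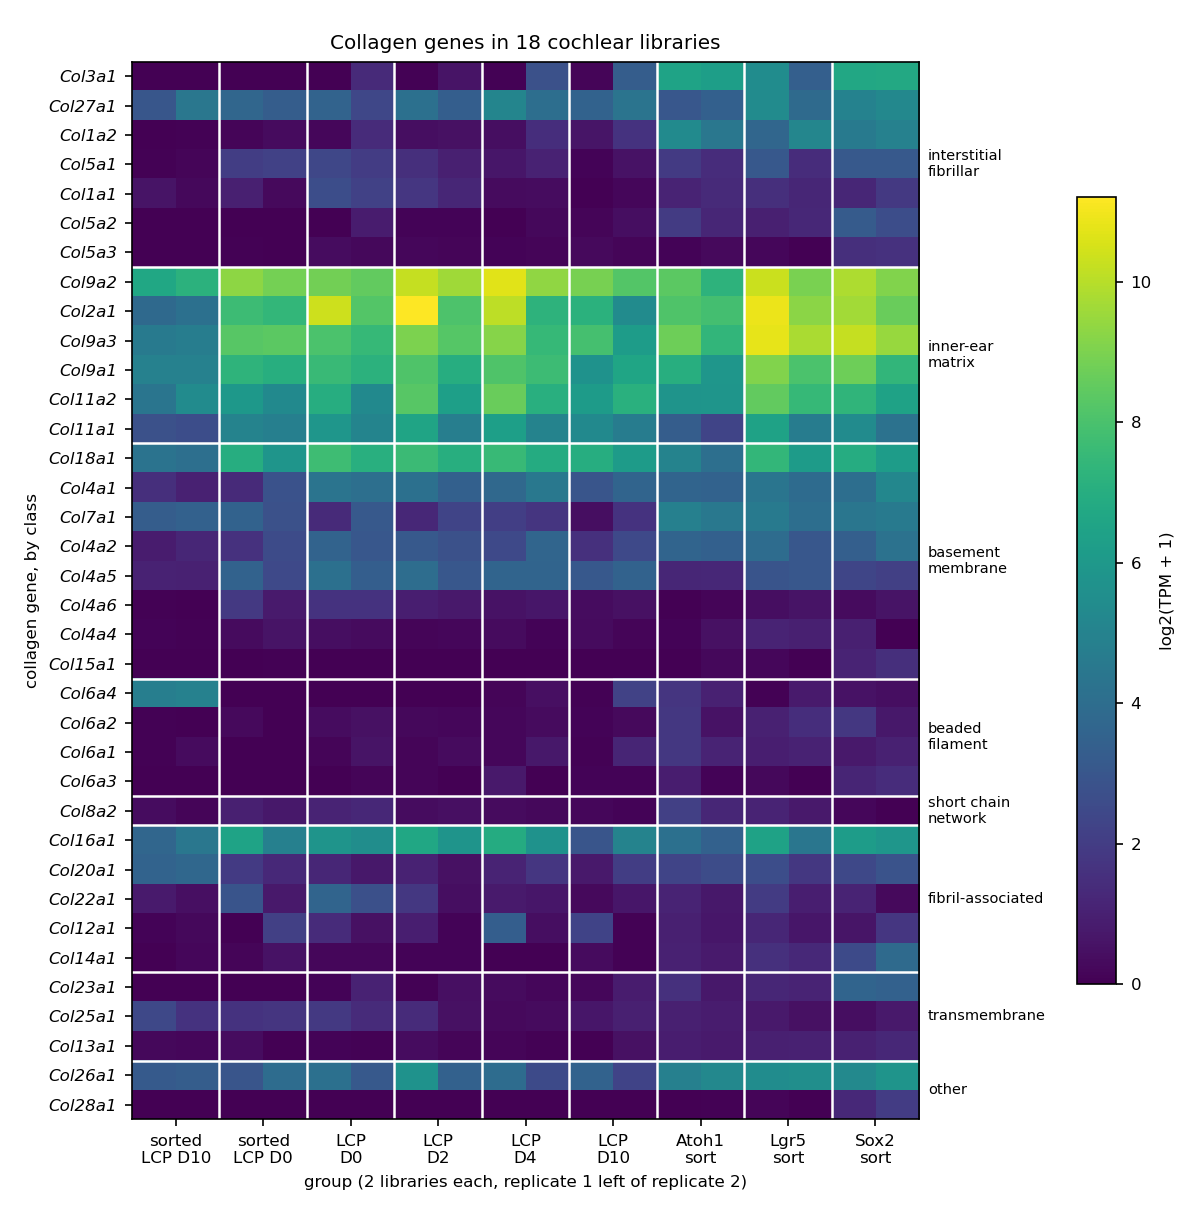
Level of the 36 collagen genes (rows, grouped by class) in the 18 libraries (columns, 2 per group), as log2(TPM + 1). The inner-ear matrix rows hold the highest values in every group, Col3a1 and Col1a2 are high only in the 3 native sorts, and Col6a4 is high only in sorted LCP D10, at 26.6 and 29.8 TPM.

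The TPM values of chains of the same collagen did not keep a fixed proportion across libraries. The TPM ratio of Col9a3 to Col9a2 was 0.17 to 0.71 in the 12 culture libraries and 1.11 to 1.76 in the 6 native libraries, without overlap. Within the unsorted cultures this ratio was 0.57 and 0.51 at D0, 0.44 and 0.395 at D2, 0.34 and 0.27 at D4 and 0.498 and 0.24 at D10. In sorted cultures it was 0.23 and 0.17 at D10, against 0.495 and 0.71 at D0. Exons of Col9a3 overlap exons of Tcfl5, on the opposite strand, by at most 234 bases per exon. The kits in the labels do not mark strand. Tcfl5 had 0.15 to 1.11 TPM in the native libraries and 0.99 to 19.4 TPM in the cultures, and its part in the ratio was not tested. The ratio of Col11a1 to Col11a2 was below 1 in all 18 libraries, at 0.068 to 0.83.

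**Figure D3:**
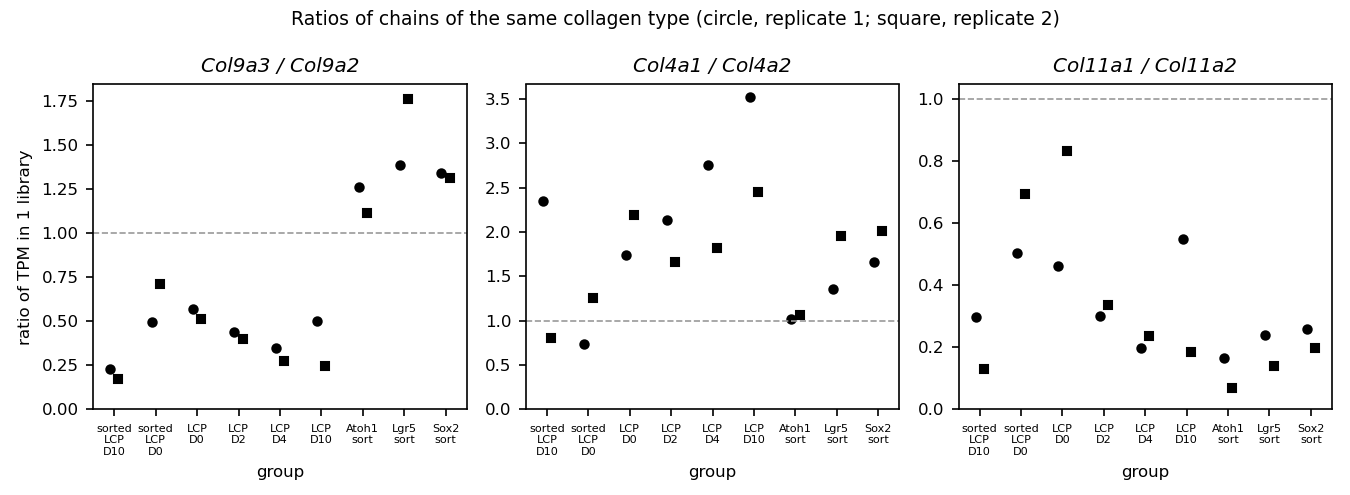
Ratios of the TPM values of 2 chains of the same collagen in each library, by group (circle, replicate 1; square, replicate 2); the dashed line marks equal levels. Col9a3 / Col9a2 lies above 1 in the 6 native libraries and below 1 in the 12 culture libraries, Col4a1 / Col4a2 runs from 0.73 to 3.53, and Col11a1 / Col11a2 lies below 1 throughout.

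The sequences before the start of Col11a1 and Col11a2, whose chains share a fibril but differed in level, are shown as 250 bases each from RefSeq on the build GRCm38.p6. Capitals mark GGGCGG, a letter run found in many GC-rich promoters, and TATAAA, the TATA box run, on either strand (CCGCCC and TTTATA). The first lies at chr3:114030290-114030539 (+ strand) and the second at chr17:34038888-34039137 (+ strand). The RefSeq start used for Col11a2 lies upstream of the GENCODE start of the gene, at chr17:34039437, so the second window does not adjoin that start.
Col11a1: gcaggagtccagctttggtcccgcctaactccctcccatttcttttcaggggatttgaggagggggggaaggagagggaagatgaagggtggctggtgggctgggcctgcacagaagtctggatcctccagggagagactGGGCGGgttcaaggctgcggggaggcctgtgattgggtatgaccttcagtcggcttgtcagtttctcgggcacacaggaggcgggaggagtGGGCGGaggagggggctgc
Col11a2: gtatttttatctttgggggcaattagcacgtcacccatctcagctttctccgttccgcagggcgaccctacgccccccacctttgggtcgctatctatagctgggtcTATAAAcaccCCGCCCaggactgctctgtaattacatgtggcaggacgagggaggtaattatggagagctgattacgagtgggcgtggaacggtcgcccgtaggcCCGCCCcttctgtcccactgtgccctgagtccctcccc
Both windows hold GGGCGG or its complement 2 times, and TATAAA lies in the Col11a2 window only. Of 32851 windows of this length in the RefSeq table, 32.7% hold GGGCGG or its complement and 12.4% hold TATAAA or its complement. Of the collagen genes, 28 had windows in the table, 31 in all, of which 19 held GGGCGG and 3 held TATAAA. The E-box run CAGCTG was in 3 of the 31 windows and in 13.0% of all, AACAAAG was in 2 and in 5.03% of all, and AACAATG was in 0 and in 3.29% of all, both strands counted.

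Among the interstitial fibrillar genes, Col3a1 and Col1a2 had higher levels in every native library than in any culture library. Col3a1, the chain of the reticular fibre collagen III, had 0.027 and 0 TPM in sorted LCP D10 and was listed at 0 in both libraries of sorted LCP D0. Unsorted LCP had 0 and 1.5 TPM at D0, 0.054 and 0.504 TPM at D2, 0.033 and 5.802 TPM at D4 and 0.11 and 8.84 TPM at D10. In native cells it had 90.2 and 76.9 TPM in the Atoh1 sort, 42.2 and 9.49 TPM in the Lgr5 sort and 105 and 108 TPM in the Sox2 sort. The nearest values of the 2 kinds of library were 9.49 TPM in the Lgr5 sort and 8.84 TPM in LCP D10. Col3a1 shares at most 141 bases per exon with the microRNA gene Gm47302 on the same strand. Gm47302 had 10.8 to 241 TPM in the native libraries and was above 0 in only 2 culture libraries, so reads may be split between the 2 genes.

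Col1a2, a chain of the main connective tissue fibril, followed the same order. It had 0.025 and 0.053 TPM in sorted LCP D10 and 0.12 and 0.24 TPM in sorted LCP D0. The unsorted cultures had 0.14 and 1.61 TPM at D0, 0.32 and 0.43 TPM at D2, 0.34 and 1.75 TPM at D4 and 0.53 and 2.11 TPM at D10. The native values were 40.2 and 20.9 TPM in the Atoh1 sort, 11.9 and 34.3 TPM in the Lgr5 sort and 23.2 and 29.7 TPM in the Sox2 sort. Col1a1, whose product joins that of Col1a2 in collagen I, did not follow it. Col1a1 had 0.49 and 0.17 TPM in sorted LCP D10 and 0.98 and 0.24 TPM in sorted LCP D0, and in unsorted LCP 5.19 and 3.49 TPM at D0, 2.46 and 1.33 TPM at D2, 0.26 and 0.30 TPM at D4 and 0.0048 and 0.16 TPM at D10. Among the native sorts it had 1.201 and 1.53 TPM in the Atoh1 sort, 1.84 and 1.34 TPM in the Lgr5 sort and 1.29 and 2.597 TPM in the Sox2 sort. The highest Col1a1 libraries were those of unsorted LCP D0, where Col1a2 did not exceed 1.61 TPM. The ratio of Col1a1 to Col1a2 was 0.009 to 36.7 in the cultures, where both genes were low, and 0.030 to 0.154 in the native sorts.

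Of 8 mesenchyme markers that are not collagens, 2 to 4 reached 1 TPM in the culture libraries and 4 to 8 in the native ones. Their summed TPM was 49.0 to 1622 in the cultures and 94.3 to 679 in the native sorts, with Dcn and Lum, which code for small matrix proteoglycans, as the 2 highest in most libraries. Pdgfra, a fibroblast receptor, had 0.40 to 2.27 TPM in the cultures and 5.48 to 24.0 TPM in the native sorts. Otos, a gene of cochlear fibrocytes, had 0 to 0.93 TPM in the cultures and 2.41 to 21.6 TPM in the native sorts. These 2, with Tbx18 and Pou3f4, were higher in every native library than in any culture library. The summed level did not follow them. Dcn had 895.1 and 420.8 TPM in sorted LCP D0 and 736.7 and 803.4 TPM in unsorted LCP D0, against 17.5 to 113 TPM in the native sorts. Lum, Twist1 and Prrx1 overlapped between cultures and native sorts, with their highest libraries in the cultures. The part of mesenchymal cells in the Col3a1 and Col1a2 levels was not tested.

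The window before Col3a1, at chr1:45311288-45311537 (+ strand, RefSeq, GRCm38.p6), is shown because the gene was high in the native sorts only. Capitals mark the same letter runs as before.
Col3a1: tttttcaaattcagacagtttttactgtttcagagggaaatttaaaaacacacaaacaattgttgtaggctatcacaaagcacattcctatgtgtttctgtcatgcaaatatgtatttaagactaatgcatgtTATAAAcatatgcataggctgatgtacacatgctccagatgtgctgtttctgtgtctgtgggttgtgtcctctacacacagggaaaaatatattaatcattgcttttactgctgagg
The Col3a1 window is 35.2% G and C, against a median of 52.4% over all windows, and holds TATAAA but no GGGCGG.

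Of the other interstitial fibrillar genes, Col27a1 was present everywhere. Col27a1, a cartilage fibril chain, had 6.98 and 20.6 TPM in sorted LCP D10 and 12.1 and 8.76 TPM in sorted LCP D0, 10.7 and 4.16 TPM at D0, 16.4 and 9.13 TPM at D2, 33.1 and 15.6 TPM at D4 and 10.6 and 18.8 TPM at D10 of unsorted LCP. The native levels were 7.22 and 9.97 TPM in the Atoh1 sort, 41.4 and 13.6 TPM in the Lgr5 sort and 30.1 and 37.1 TPM in the Sox2 sort. Col5a1, which regulates fibril width, had 0.051 and 0.096 TPM in sorted LCP D10 and 3.12 and 3.53 TPM in sorted LCP D0. Col5a1 had 4.17 and 3.004 TPM at D0, 1.88 and 0.95 TPM at D2, 0.59 and 1.07 TPM at D4 and 0.073 and 0.45 TPM at D10 of unsorted LCP, with 2.71 and 1.66 TPM in the Atoh1 sort, 7.38 and 1.695 TPM in the Lgr5 sort and 7.84 and 7.83 TPM in the Sox2 sort. Both D10 groups were the lowest for Col5a1.

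Col5a2, the partner of Col5a1 in collagen V, was below 1 TPM in all 12 culture libraries, with 0.023 and 0 TPM in sorted LCP D10 and 0 and 0 TPM in sorted LCP D0. Cultures that were not sorted had 0.0066 and 0.83 TPM at D0, 0.084 and 0.076 TPM at D2, 0 and 0.17 TPM at D4 and 0.12 and 0.34 TPM at D10, and native cells had 2.904 and 1.304 TPM in the Atoh1 sort, 0.999 and 1.34 TPM in the Lgr5 sort and 8.26 and 5.19 TPM in the Sox2 sort. Col5a3, a further type V chain, had 0.13 and 0 TPM in the Lgr5 sort and 1.81 and 2.02 TPM in the Sox2 sort, 0.068 and 0.22 TPM in the Atoh1 sort and at most 0.29 TPM in any culture library, sorted LCP D10 having 0.0202 and 0.0102 TPM.

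**Figure D4:**
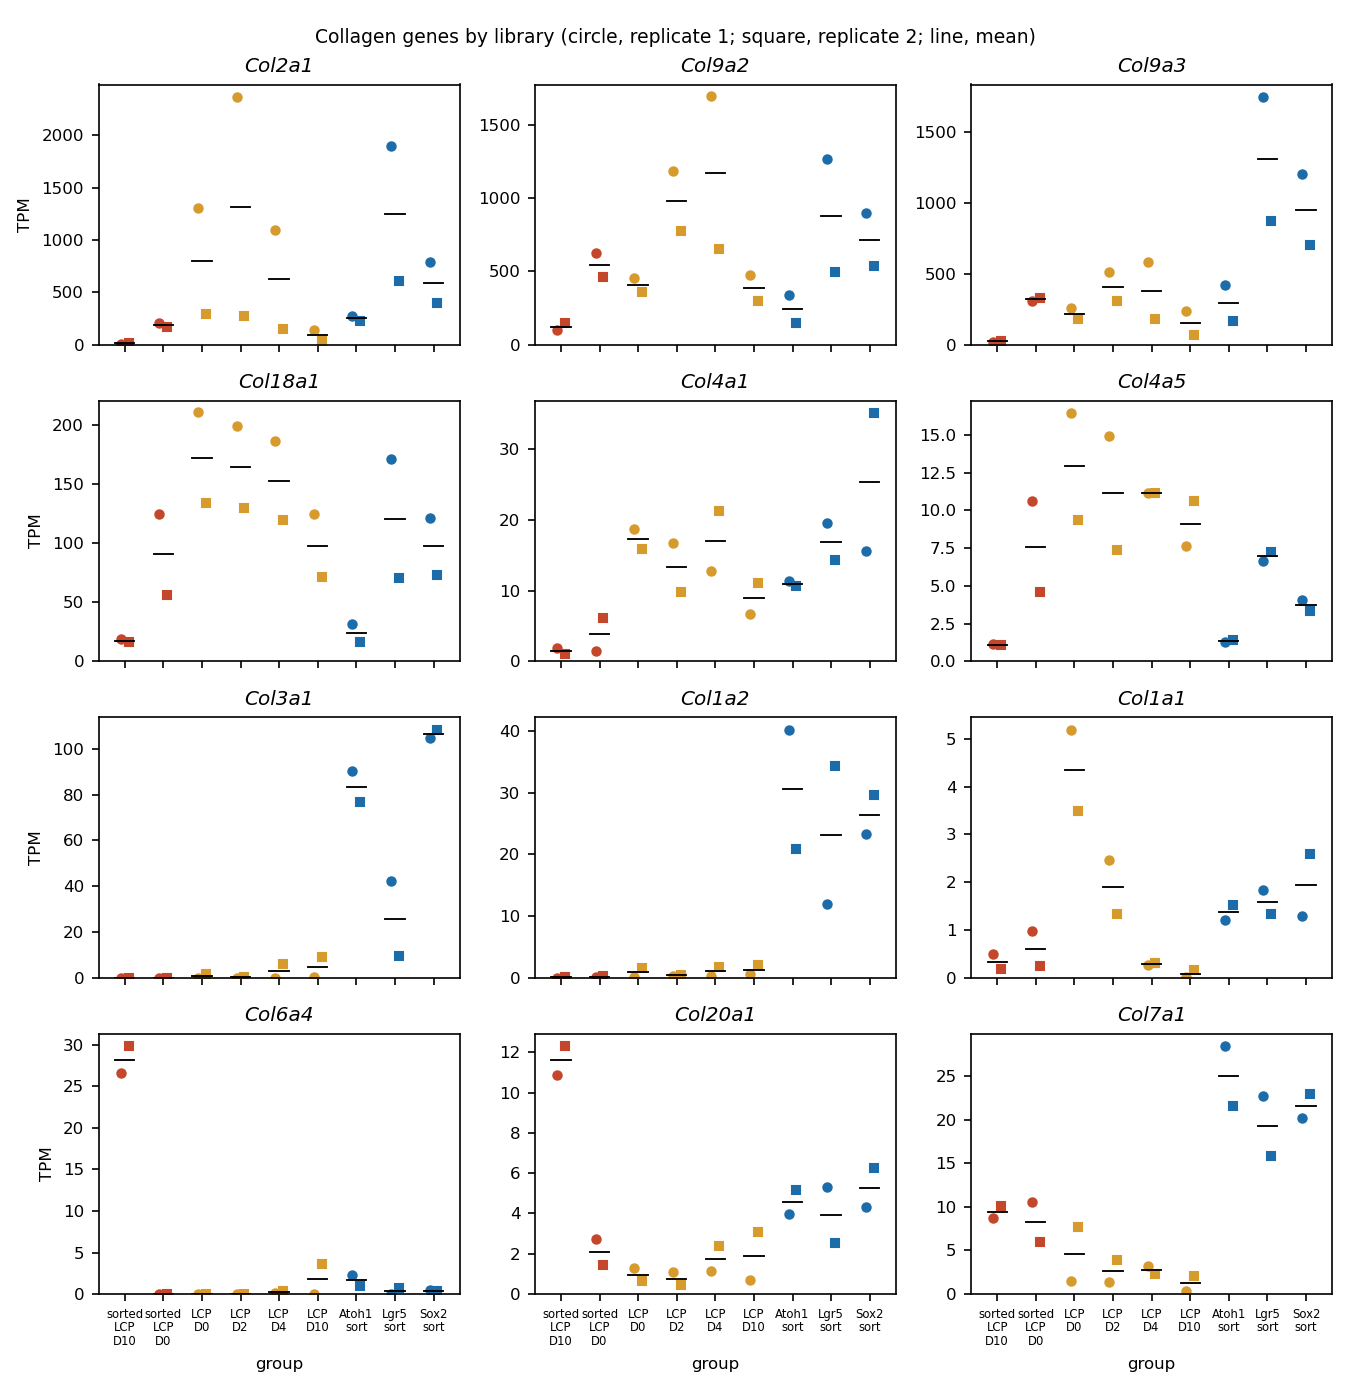
TPM of 12 collagen genes in each library (circle, replicate 1; square, replicate 2; line, group mean; red, sorted LCP; yellow, unsorted LCP; blue, native sorts). Col6a4 reaches 26.6 and 29.8 TPM in sorted LCP D10 and at most 3.64 TPM elsewhere, Col3a1 and Col1a2 are highest in the native sorts, and Col1a1 is highest in LCP D0, at 5.19 and 3.49 TPM.

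Among basement membrane genes, Col18a1, the source of endostatin, was the most abundant. It had 18.6 and 16.2 TPM in sorted LCP D10 and 125 and 56.4 TPM in sorted LCP D0. Without sorting, the cultures had 211 and 134 TPM at D0, 199.5 and 129.6 TPM at D2, 186 and 119.7 TPM at D4 and 125 and 71.04 TPM at D10. Its P2 levels were 31.5 and 16.2 TPM in the Atoh1 sort, 172 and 70.2 TPM in the Lgr5 sort and 121 and 73.1 TPM in the Sox2 sort. Sorted LCP D10 and the Atoh1 sort were the lowest for Col18a1 and overlapped each other.

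Col4a1, a chain of the basement membrane sheet found in nearly all tissues, had 1.87 and 1.03 TPM in sorted LCP D10 and 1.51 and 6.18 TPM in sorted LCP D0. Cultures that were not sorted had 18.6 and 15.8 TPM at D0, 16.8 and 9.87 TPM at D2, 12.8 and 21.3 TPM at D4 and 6.71 and 11.1 TPM at D10. In native cells it had 11.4 and 10.6 TPM in the Atoh1 sort, 19.6 and 14.3 TPM in the Lgr5 sort and 15.6 and 35.1 TPM in the Sox2 sort. Its partner Col4a2 had 0.798 and 1.29 TPM in sorted LCP D10 and 2.07 and 4.93 TPM in sorted LCP D0. Unsorted LCP had 10.7 and 7.24 TPM at D0, 7.86 and 5.92 TPM at D2, 4.62 and 11.7 TPM at D4 and 1.903 and 4.53 TPM at D10, and native cells had 11.3 and 9.97 TPM in the Atoh1 sort, 14.4 and 7.33 TPM in the Lgr5 sort and 9.36 and 17.5 TPM in the Sox2 sort. The sorted cultures were thus the lowest for Col4a1, while the native sorts and unsorted cultures overlapped. The 2 genes lie head to head on chromosome 8 and their annotated exons overlap by 22 bases, at chr8:11312805-11312826 (+ strand, GENCODE gene models, sequence from RefSeq, GRCm38.p6), shown because both transcripts start there.
Shared start of Col4a1 and Col4a2: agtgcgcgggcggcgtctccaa
Their TPM ratio still ran from 0.73 to 3.53 across the libraries.

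The other type IV pairs share this layout, Col4a4 with Col4a3 at 71 bases apart and Col4a6 with Col4a5 at 1308 bases apart. Col4a5, whose loss causes Alport syndrome, had 1.12 and 1.05 TPM in sorted LCP D10 and 10.6 and 4.58 TPM in sorted LCP D0. Unsorted LCP had 16.5 and 9.35 TPM at D0, 14.9 and 7.37 TPM at D2, 11.1 and 11.1 TPM at D4 and 7.604 and 10.6 TPM at D10. Among the native sorts it had 1.31 and 1.39 TPM in the Atoh1 sort, 6.63 and 7.26 TPM in the Lgr5 sort and 4.09 and 3.33 TPM in the Sox2 sort. The same 2 groups as for Col18a1 were the lowest. Col4a6 reached 1 TPM in 3 libraries, with 0.0397 and 0.0102 TPM in sorted LCP D10 and 2.61 and 0.74 TPM in sorted LCP D0. The unsorted cultures had 2.07 and 2.16 TPM at D0, 0.93 and 0.71 TPM at D2, 0.48 and 0.602 TPM at D4 and 0.29 and 0.398 TPM at D10, and native cells had 0.0066 and 0.12 TPM in the Atoh1 sort, 0.33 and 0.49 TPM in the Lgr5 sort and 0.27 and 0.52 TPM in the Sox2 sort.

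Col7a1, the anchoring fibril chain of epithelia, differed from the sheet-forming chains. It had 8.78 and 10.1 TPM in sorted LCP D10 and 10.6 and 5.96 TPM in sorted LCP D0, and in unsorted LCP 1.51 and 7.63 TPM at D0, 1.39 and 3.86 TPM at D2, 3.25 and 2.33 TPM at D4 and 0.35 and 2.101 TPM at D10. It had 28.4 and 21.6 TPM in the Atoh1 sort, 22.7 and 15.8 TPM in the Lgr5 sort and 20.2 and 22.9 TPM in the Sox2 sort. All 6 native libraries were above all 12 culture libraries. Col15a1 had 0.16 and 0.014 TPM in the Lgr5 sort and 1.17 and 1.89 TPM in the Sox2 sort, and at most 0.18 TPM elsewhere. Col4a4 did not exceed 1.14 TPM.

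Col6a4, a type VI chain that is a pseudogene in humans, was high in a single group. It had 26.6 and 29.8 TPM in sorted LCP D10 and 0.0039 and 0 TPM in sorted LCP D0. Among unsorted cultures it was listed at 0 in all 4 libraries of D0 and D2, and had 0.12 and 0.37 TPM at D4 and 0.039 and 3.64 TPM at D10. The native levels were 2.28 and 1.02 TPM in the Atoh1 sort, 0.042 and 0.77 TPM in the Lgr5 sort and 0.46 and 0.34 TPM in the Sox2 sort. In both libraries of sorted LCP D10 only 2 collagen genes had higher values, and it took 9.01 and 7.61% of collagen TPM there.

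The other type VI chains did not share this pattern. Col6a1 had 0.058 and 0.24 TPM in sorted LCP D10 and 0 and 0 TPM in sorted LCP D0. Without sorting, the cultures had 0.13 and 0.504 TPM at D0, 0.11 and 0.26 TPM at D2, 0.14 and 0.66 TPM at D4 and 0.042 and 1.203 TPM at D10, and native cells had 2.495 and 1.15 TPM in the Atoh1 sort, 0.89 and 1.101 TPM in the Lgr5 sort and 0.702 and 1.07 TPM in the Sox2 sort. Both native replicates of each sort were thus above the sorted cultures. Col6a2 had 0.037 and 0.0091 TPM in sorted LCP D10 and 0.22 and 0.0045 TPM in sorted LCP D0. Cultures that were not sorted had 0.31 and 0.399 TPM at D0, 0.19 and 0.13 TPM at D2, 0.13 and 0.24 TPM at D4 and 0.075 and 0.23 TPM at D10, and native cells had 2.56 and 0.47 TPM in the Atoh1 sort, 1.07 and 1.77 TPM in the Lgr5 sort and 2.54 and 0.66 TPM in the Sox2 sort. Col6a3, the chain that usually completes the type VI molecule, was listed at 0 in both libraries of sorted LCP D10 and did not exceed 1.69 TPM anywhere. The sequence before Col6a4 is shown for its distinct pattern, as the 158 bases before the annotated gene at chr9:106096784-106096941 (- strand, RefSeq, GRCm38.p6), with capitals for the same letter runs.
Col6a4: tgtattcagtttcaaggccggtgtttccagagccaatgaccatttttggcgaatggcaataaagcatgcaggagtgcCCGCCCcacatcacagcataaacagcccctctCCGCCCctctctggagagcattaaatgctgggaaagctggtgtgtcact
It holds CCGCCC, the complement of GGGCGG, 2 times and neither TATAAA nor CAGCTG. The gene lies at chr9:105989454-106096783, and the antisense models Gm36993 and Gm47575 overlap its exons by at most 127 and 76 bases per exon. Gm36993 did not exceed 0.056 TPM in any library.

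Fibril-associated collagens bind to the surface of other fibrils. Col16a1, the most abundant, had 12.1 and 20.4 TPM in sorted LCP D10 and 88.3 and 28.7 TPM in sorted LCP D0, and in unsorted LCP 54.1 and 43.9 TPM at D0, 102 and 54.01 TPM at D2, 119.9 and 51.8 TPM at D4 and 6.79 and 31.7 TPM at D10. It had 16.4 and 10.1 TPM in the Atoh1 sort, 87.7 and 20.4 TPM in the Lgr5 sort and 72.3 and 58.4 TPM in the Sox2 sort. The replicates of several groups lay far apart for this gene. Col20a1 had 10.9 and 12.3 TPM in sorted LCP D10 and 2.74 and 1.42 TPM in sorted LCP D0, and in unsorted LCP 1.28 and 0.65 TPM at D0, 1.09 and 0.44 TPM at D2, 1.15 and 2.37 TPM at D4 and 0.69 and 3.06 TPM at D10. It had 3.98 and 5.17 TPM in the Atoh1 sort, 5.33 and 2.55 TPM in the Lgr5 sort and 4.32 and 6.26 TPM in the Sox2 sort. Sorted LCP D10 was thus the highest group for Col20a1, as for Col6a4.

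Col22a1, a collagen of tissue junctions, had 0.76 and 0.35 TPM in sorted LCP D10 and 6.55 and 0.73 TPM in sorted LCP D0, and in unsorted LCP 11.2 and 5.63 TPM at D0, 2.54 and 0.33 TPM at D2, 0.76 and 0.597 TPM at D4 and 0.22 and 0.61 TPM at D10. It had 1.16 and 0.67 TPM in the Atoh1 sort, 2.85 and 0.94 TPM in the Lgr5 sort and 1.19 and 0.201 TPM in the Sox2 sort. Unsorted LCP D0 was the highest group by its mean. Col12a1 was at 0 to 9.21 TPM and Col14a1 at 0.0021 to 13.8 TPM, with the highest Col14a1 values in the Sox2 sort, at 4.81 and 13.8 TPM.

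The remaining classes were low apart from Col26a1. Col26a1 had 8.12 and 8.92 TPM in sorted LCP D10 and 6.78 and 14.5 TPM in sorted LCP D0, and in unsorted LCP 16.5 and 7.65 TPM at D0, 50.9 and 10.2 TPM at D2, 14.8 and 4.68 TPM at D4 and 10.4 and 3.74 TPM at D10. It had 28.5 and 36.96 TPM in the Atoh1 sort, 42.2 and 45.97 TPM in the Lgr5 sort and 37.9 and 54.2 TPM in the Sox2 sort, so that 1 culture library, at D2, lay within the native range. The transmembrane gene Col23a1 had 1.297 and 1.199 TPM in the Lgr5 sort and 11.3 and 10.3 TPM in the Sox2 sort and 1.94 and 0.65 TPM in the Atoh1 sort. It had 0.019 and 0.015 TPM in sorted LCP D10 and 0.016 and 0 TPM in sorted LCP D0. Unsorted LCP had 0.084 and 1.08 TPM at D0, 0.033 and 0.36 TPM at D2, 0.24 and 0.16 TPM at D4 and 0.15 and 0.82 TPM at D10. Both Sox2 libraries stood above all others for Col23a1. Col25a1, another transmembrane collagen, had 4.46 and 2.09 TPM in sorted LCP D10 and 2.1 and 2.35 TPM in sorted LCP D0. The unsorted cultures had 2.62 and 1.62 TPM at D0, 1.62 and 0.42 TPM at D2, 0.21 and 0.24 TPM at D4 and 0.59 and 0.96 TPM at D10, and native cells had 0.998 and 0.802 TPM in the Atoh1 sort, 0.71 and 0.42 TPM in the Lgr5 sort and 0.33 and 0.72 TPM in the Sox2 sort.

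Col13a1, a transmembrane collagen of cell contacts, had 0.18 and 0.13 TPM in sorted LCP D10 and 0.30 and 0 TPM in sorted LCP D0. Without sorting, the cultures had 0.087 and 0.049 TPM at D0, 0.29 and 0.101 TPM at D2, 0.10 and 0.053 TPM at D4 and 0.028 and 0.42 TPM at D10, and native cells had 0.87 and 0.73 TPM in the Atoh1 sort, 0.996 and 1.02 TPM in the Lgr5 sort and 1.04 and 1.38 TPM in the Sox2 sort. Col13a1 stayed low everywhere. Col28a1 had 0.12 and 0 TPM in the Lgr5 sort and 1.45 and 3.01 TPM in the Sox2 sort, and at most 0.053 TPM elsewhere. Col8a2, of the short chain network, did not exceed 3.35 TPM, its value in replicate 1 of the Atoh1 sort.

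The gene models of the classes also differ in exon length. In 7 interstitial fibrillar genes 76.6 to 90.0% of the inner coding exons are whole multiples of 9 bases, the length that codes for a Gly-X-Y unit, and in 6 inner-ear matrix genes 61.1 to 84.6% are. In 8 basement membrane genes 28.9 to 65.5% are, with 1 to 6 exons of 54 bases each, against 21 to 33 such exons in the interstitial fibrillar and 14 to 31 in the inner-ear matrix genes. Col6a4 has 35 inner coding exons, of which 3 have 54 bases.

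Differences between groups were tested with limma on log2(TPM + 1), in 1 fit across 20463 genes, with p-values adjusted over all of them and a threshold of 0.05. All log2 differences below are on this scale, which understates the change of genes near 0. Native hair cells, the Atoh1 sort, were first compared with the mean of the Lgr5 and Sox2 supporting cell sorts. No collagen gene passed, against 0.821% of all genes (0.318% higher and 0.503% lower), while 16 collagen genes reached an unadjusted p under 0.05, as did 12.0% of all genes. The median log2 difference of the 36 genes was -0.47, against 0.03 over all genes, and all 6 inner-ear matrix genes had values below 0. Col18a1 (log2 difference -2.12, SE 0.46, limma adjusted p = 0.0649) and Col8a2 (log2 difference 1.15, SE 0.25, limma adjusted p = 0.0649) had the lowest adjusted p.

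With the replicate number as a block 5 collagen genes passed in this comparison, against 1.12% of all genes in the same fit. Col9a2 (adjusted p = 0.0398), Col9a3 (adjusted p = 0.0342), Col11a1 (adjusted p = 0.011) and Col18a1 (adjusted p = 0.000768) fell and Col8a2 (adjusted p = 0.0438) rose in the limma fit with the block. Both Atoh1 libraries were below all 4 supporting cell libraries for these 4 lower genes. Such groups without overlap were found for 4 higher and 15 lower collagen genes, against 14.8 and 9.29% of all genes. Of 6 chondrocyte markers that are not collagens, 2 or 3 reached 1 TPM here, with a summed TPM of 53.5 to 156 in the Atoh1 sort and 418 to 887 in the Lgr5 and Sox2 sorts, nearly all from Cnmd and Sox9. Acan and Hapln1 did not exceed 0.05 TPM in any library. In Lgr5 sort replicate 2 and both Sox2 libraries, Matn1 reached 1 TPM beside Cnmd and Sox9, and Matn3 was listed at 0. Which cells these transcripts came from, and their part in the result, was not tested. Without Sox2 sort replicate 1, 2 genes passed in the fit with no block, without Atoh1 sort replicate 2 or Lgr5 sort replicate 2, 1 did, and without any other library 0 did.

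Between the supporting cell sorts, 5 collagen genes passed, all lower in the Lgr5 sort than in the Sox2 sort, against 0.557% of all genes (0.0538% higher and 0.503% lower). Of these, Col5a3, Col15a1 and Col28a1 reached 1 TPM in the 2 Sox2 libraries only, so they met the minimum through that sort alone. Their direction is therefore fixed by how the genes were chosen, and the values are a description. The other 2 calls, Col23a1 and Col5a2, did not depend on it. The libraries did not overlap for 4 higher and 10 lower collagen genes, against 12.3 and 19.6% of all genes. Those called were Col23a1 (log2 difference -2.39, SE 0.36, limma adjusted p = 0.0126), Col5a2 (log2 difference -1.81, SE 0.34, limma adjusted p = 0.039), Col28a1 (log2 difference -1.56, SE 0.22, limma adjusted p = 0.00731), Col5a3 (log2 difference -1.46, SE 0.18, limma adjusted p = 0.00324) and Col15a1 (log2 difference -1.20, SE 0.19, limma adjusted p = 0.0199). All 6 inner-ear matrix genes had values above 0, with a median log2 difference of 0.64, and none passed. Summed TPM of 6 Schwann cell markers was 60.6 and 69.3 in the Lgr5 sort and 427 and 936 in the Sox2 sort. Summed TPM of 6 markers of other cochlear epithelium was 75.7 and 154 in the Lgr5 sort and 417 and 1960 in the Sox2 sort, where most of it was Oc90. Their part in the lower levels was not tested. Col5a2 did not pass with the replicate block (limma adjusted p = 0.0577). With a pseudocount of 0.1 none of the 5 passed. Neither Col23a1 nor Col5a2 passed without each of the 4 libraries in turn, and 1 collagen gene passed without Lgr5 sort replicate 2, 2 without Sox2 sort replicate 2 and 3 without Lgr5 sort replicate 1.

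During differentiation of unsorted LCP, the collagen genes that passed all fell. At D2 none passed against D0, as against 0.0489% of all genes (0.0147% higher and 0.0342% lower), while 5 collagen genes reached an unadjusted p under 0.05, as did 4.5% of all genes. At D4 1 passed, Col1a1 (log2 difference -2.04, SE 0.34, limma adjusted p = 0.00746), against 3.39% of all genes (1.09% higher and 2.29% lower). At D10 4 passed, against 7.39% of all genes (3.05% higher and 4.34% lower). Those at D10 were Col22a1 (log2 difference -2.68, SE 0.67, limma adjusted p = 0.0325), Col1a1 (log2 difference -2.29, SE 0.34, limma adjusted p = 0.0023), Col5a1 (log2 difference -1.87, SE 0.46, limma adjusted p = 0.0298) and Col4a6 (log2 difference -1.22, SE 0.30, limma adjusted p = 0.0306). Col4a6 met the minimum only through D0 libraries, which fixes its direction, so its value is a description. For each of the 4, both D10 libraries lay below both D0 libraries. Over all collagen genes the libraries did not overlap for 3 higher and 10 lower at D2, 5 higher and 10 lower at D4, and 1 higher and 13 lower at D10. Among all genes these shares were 10.7 and 18.5% at D2, 16.3 and 25.9% at D4, and 18.5 and 27.3% at D10. The median log2 difference of the 36 genes at D10 was -0.19, against -0.08 over all genes.

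The inner-ear matrix genes of unsorted LCP did not pass at any time in this fit. Their median log2 difference from D0 was 0.62 at D2, 0.53 at D4 and -0.58 at D10. With the replicate block, Col22a1 also passed at D4 (limma adjusted p = 0.0205), and Col2a1 (limma adjusted p = 0.0289) and Col8a2 (limma adjusted p = 0.0321) also passed at D10, all lower than at D0. In that fit 4.86% of all genes passed at D4 and 9.82% at D10. Col1a1 at D10 passed without each of the 4 libraries in turn, while Col5a1, Col4a6 and Col22a1 were lost without any of them, at limma adjusted p of 0.0744 to 0.209. At D4 Col1a1 was lost without D0 replicate 1 (limma adjusted p = 0.0777) or D4 replicate 2 (limma adjusted p = 0.0645). D10 against D4, added after seeing the data, gave 0 collagen genes and 0.0147% of all genes. Summed TPM of 5 proliferation markers was 3.09 to 3.71 at D10 and 286 to 367 at D0, and that of the 8 mesenchyme markers 439 to 512 at D10 and 1011 to 1531 at D0. For the 8 hair cell markers it was 425 to 667 at D10 and 32.65 to 34.83 at D0. The part of all these markers in the lower levels was not tested.

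In sorted LCP, D10 differed from D0 in 11 collagen genes, 2 higher and 9 lower, against 24.0% of all genes (13.3% higher and 10.7% lower). The libraries did not overlap for 3 higher and 14 lower collagen genes, against 31.6 and 28.8% of all genes. Of the 6 inner-ear matrix genes 5 fell, Col9a3 (log2 difference -3.67, SE 0.67, limma adjusted p = 0.00241), Col2a1 (log2 difference -3.57, SE 1.13, limma adjusted p = 0.0385), Col9a1 (log2 difference -2.25, SE 0.55, limma adjusted p = 0.0119), Col11a1 (log2 difference -2.19, SE 0.71, limma adjusted p = 0.0436) and Col9a2 (log2 difference -2.13, SE 0.56, limma adjusted p = 0.0173). Col11a2 had a log2 difference of -0.77 and overlapping libraries. The median of the class was -2.22 and that of the 36 collagen genes -0.25, against 0.02 over all genes. Of the basement membrane genes Col18a1 (log2 difference -2.21, SE 0.53, limma adjusted p = 0.0107), Col4a5 (log2 difference -1.95, SE 0.41, limma adjusted p = 0.0055) and Col4a6 (log2 difference -1.29, SE 0.30, limma adjusted p = 0.00899) fell, and of the interstitial fibrillar genes Col5a1 (log2 difference -2.01, SE 0.46, limma adjusted p = 0.00817).

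The 2 that rose in sorted LCP were Col6a4 (log2 difference 4.86, SE 0.54, limma adjusted p = 0.000157) and Col20a1 (log2 difference 2.06, SE 0.47, limma adjusted p = 0.00828). Within replicate numbers 1 and 2 the log2 difference of Col6a4 was 4.78 and 4.95, and that of Col9a3 was -3.69 and -3.64. All 42 calls made over the 11 comparisons kept their direction within both replicate numbers. These are the same libraries that gave the calls, so this is a description and no separate support. Col6a4, Col9a3 and Col4a5 passed without each of the 4 libraries in turn, while Col2a1 and Col11a1 were lost without any of them (limma adjusted p of 0.106 to 0.159). The count was 5 without sorted D0 replicate 1 or sorted D10 replicate 1, 7 without sorted D10 replicate 2 and 9 without sorted D0 replicate 2. The chondrocyte markers were at 71.8 to 102 TPM in sorted LCP D10 and 132 to 472 TPM in sorted LCP D0. Only 2 of the 6 reached 1 TPM in these libraries, and the others stayed below it. The hair cell markers were at 873 to 1092 TPM in sorted LCP D10 and 5.61 to 19.1 TPM in sorted LCP D0. The mesenchyme markers were at 49.0 to 63.8 TPM in sorted LCP D10 and 662 to 1622 TPM in sorted LCP D0, and their part in these changes was not tested.

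**Figure D5:**
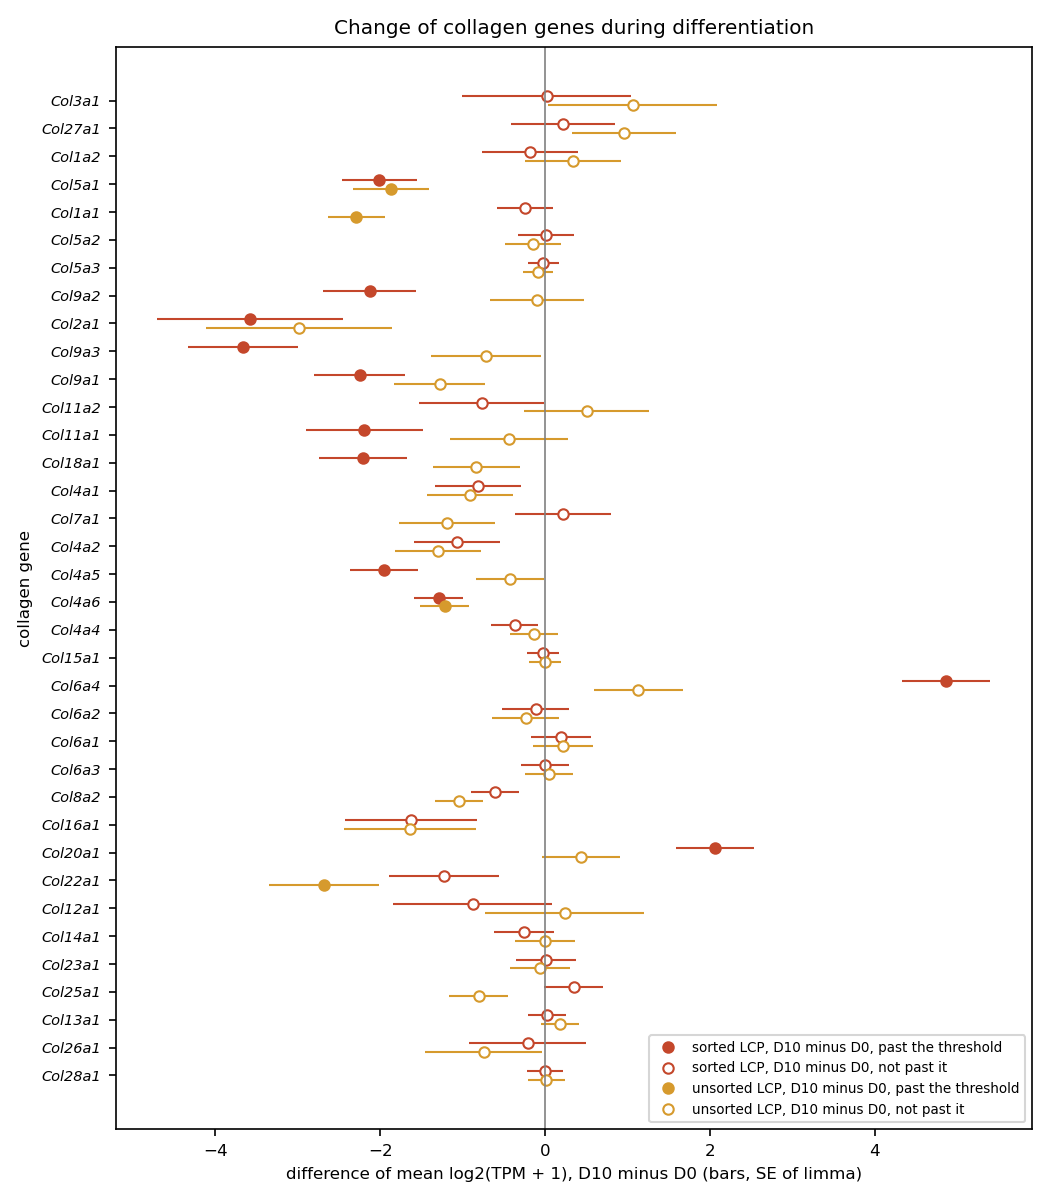
Difference of mean log2(TPM + 1), D10 minus D0, of the 36 collagen genes in sorted (red) and unsorted (yellow) LCP, with bars for the SE of limma and filled points for an adjusted p under 0.05. Col6a4 stands at 4.86 in sorted and 1.13 in unsorted LCP, and Col9a3 at -3.67 in sorted and -0.72 in unsorted LCP.

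Whether the change from D0 to D10 differed between sorted and unsorted LCP was tested as an interaction, and no collagen gene passed, against 0.205% of all genes (0.166% higher and 0.0391% lower). An unadjusted p under 0.05 was found for 7 collagen genes, led by Col6a4 (log2 difference 3.73, SE 0.76, limma adjusted p = 0.1) and Col1a1 (log2 difference 2.05, SE 0.48, limma adjusted p = 0.165), and for 11.1% of all genes. The median over the 36 collagen genes was -0.04 and over the 6 inner-ear matrix genes among them -1.51, against 0.18 over all genes. Without LCP D10 replicate 2, whose Col6a4 level was 3.64 TPM against 0.039 TPM in replicate 1, Col6a4 passed as the 1 gene called.

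Sorted and unsorted cultures of the same day were also compared. At D0 no collagen gene passed, against 0.0782% of all genes (0.0293% higher and 0.0489% lower). An unadjusted p under 0.05 was reached by 3, Col1a1, Col4a1 and Col4a2, all with values below 0, a share near the 9.52% of all genes that did so. The median over collagen genes was -0.26 and over all genes -0.12. The D0 libraries did not overlap for 3 higher and 12 lower collagen genes, against 12.7 and 24.2% of all genes. At D10 6 passed, against 6.22% of all genes (4.29% higher and 1.94% lower), and libraries did not overlap for 5 higher and 19 lower, against 28.8 and 25.8% of all genes. Higher in sorted LCP D10 were Col6a4 (log2 difference 3.73, SE 0.54, limma adjusted p = 0.00621), Col7a1 (log2 difference 2.35, SE 0.58, limma adjusted p = 0.0365) and Col20a1 (log2 difference 2.26, SE 0.47, limma adjusted p = 0.0198). Lower were Col18a1 (log2 difference -2.37, SE 0.53, limma adjusted p = 0.0248), Col4a5 (log2 difference -2.27, SE 0.41, limma adjusted p = 0.013) and Col4a1 (log2 difference -2.00, SE 0.52, limma adjusted p = 0.045).

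All 6 inner-ear matrix genes had values below 0 in sorted against unsorted LCP D10, at a median of -2.04. With the replicate block 10 genes passed, against 11.9% of all genes, adding Col9a2 (adjusted p = 0.025), Col9a3 (adjusted p = 0.00942) and Col11a1 (adjusted p = 0.00863), lower, and Col25a1 (adjusted p = 0.0448), higher, by limma. Only Col6a4 passed without each of the 4 libraries in turn. The count was 1 without sorted D10 replicate 1, sorted D10 replicate 2 or LCP D10 replicate 1, and 6 without LCP D10 replicate 2. Summed TPM of the hair cell markers was 873 to 1092 in sorted and 425 to 667 in unsorted LCP D10, and of the mesenchyme markers 49.0 to 63.8 in sorted and 439 to 512 in unsorted LCP D10. Their part was not tested.

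Sorted cultures were also set against native cells, D0 against the Lgr5 sort and D10 against the Atoh1 sort. In sorted LCP D0, 4 collagen genes passed against the native Lgr5 sort, all lower, against 11.0% of all genes (3.85% higher and 7.11% lower). Libraries did not overlap for 2 higher and 20 lower collagen genes, against 18.3 and 27.8% of all genes. The 4 were Col3a1 (listed at 0 in both sorted LCP D0 libraries, limma adjusted p = 0.0162), Col1a2 (log2 difference -4.18, SE 0.58, limma adjusted p = 0.000816), Col4a1 (log2 difference -2.06, SE 0.52, limma adjusted p = 0.0258) and Col13a1 (log2 difference -0.81, SE 0.23, limma adjusted p = 0.04). The median over the 36 genes was -0.70, against -0.09 over all genes. With the replicate block 7 passed, against 13.1% of all genes, adding Col2a1 (adjusted p = 0.0483), Col9a3 (adjusted p = 0.0137) and Col11a2 (adjusted p = 0.0437), all lower by limma. Only Col1a2 passed without each of the 4 libraries in turn, and 1 gene passed without Lgr5 sort replicate 1, 2 without Lgr5 sort replicate 2 or sorted D0 replicate 1, and 3 without sorted D0 replicate 2. Summed TPM of the mesenchyme markers was 662 to 1622 in sorted LCP D0 and 367 to 679 in the Lgr5 sort, and of the proliferation markers 275 to 371 in sorted LCP D0 and 4.94 to 7.27 in the Lgr5 sort. Within the mesenchyme markers Dcn was higher in sorted LCP D0, while Pdgfra, Otos, Tbx18 and Pou3f4 were lower, as given above. The part of both marker sets was not tested.

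In sorted LCP D10, 11 collagen genes passed against the native Atoh1 sort, 1 higher and 10 lower, against 11.8% of all genes (4.51% higher and 7.34% lower). Libraries did not overlap for 3 higher and 26 lower collagen genes, against 24.9 and 36.0% of all genes. Col6a4 rose (log2 difference 3.50, SE 0.54, limma adjusted p = 0.00182), with 26.6 and 29.8 TPM in sorted LCP D10 against 2.28 and 1.02 TPM in the Atoh1 sort. Of the interstitial fibrillar genes Col3a1 (log2 difference -6.38, SE 1.03, limma adjusted p = 0.00239), Col1a2 (log2 difference -4.85, SE 0.58, limma adjusted p = 0.000385), Col5a2 (log2 difference -1.57, SE 0.34, limma adjusted p = 0.0119) and Col5a1 (log2 difference -1.55, SE 0.46, limma adjusted p = 0.0483) fell. Of the inner-ear matrix genes Col2a1 (log2 difference -4.01, SE 1.13, limma adjusted p = 0.0396) and Col9a3 (log2 difference -3.39, SE 0.67, limma adjusted p = 0.0072) fell, and of the basement membrane genes Col4a2 (log2 difference -2.51, SE 0.52, limma adjusted p = 0.00967) and Col4a1 (log2 difference -2.31, SE 0.52, limma adjusted p = 0.0152). Col6a1 and Col8a2 fell too, with log2 differences of -1.26 and -1.41. The median over the 36 genes was -0.83, against -0.11 over all genes.

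With the replicate block Col9a1 was also lower in sorted LCP D10 than in the Atoh1 sort (limma adjusted p = 0.0423), where 16.1% of all genes passed. Col1a2, Col3a1 and Col6a4 passed without each of the 4 libraries in turn. The count was 3 without Atoh1 sort replicate 1, 5 without sorted D10 replicate 2, 6 without sorted D10 replicate 1 and 7 without Atoh1 sort replicate 2. Summed TPM of the mesenchyme markers was 49.0 to 63.8 in sorted LCP D10 and 94.3 to 149 in the Atoh1 sort, and of 4 red blood cell markers 0.35 to 0.71 in sorted LCP D10 and 191 to 277 in the Atoh1 sort. Their part was not tested.

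Genes that make, bind or accompany collagens were read from lists of 36 collagen-making enzymes, 10 collagen receptors and 15 basement membrane partners, of which 35, 8 and 14 were tested. In sorted LCP D10 against sorted LCP D0, 3 enzymes rose and 9 fell, against 13.3 and 10.7% of all genes. The largest changes were in Bmp1, which trims procollagen (log2 difference -3.09, SE 0.47, limma adjusted p = 0.00083), Pxdn, which links type IV chains (log2 difference -2.75, SE 0.47, limma adjusted p = 0.00173), and Tll1, a relative of Bmp1 (log2 difference 2.65, SE 0.46, limma adjusted p = 0.00195). Bmp1 had 1.12 and 0.93 TPM in sorted LCP D10, against 17.3 and 15.2 TPM in sorted LCP D0. Of the partners 1 rose and 4 fell, led by the laminin chain Lamb1 (log2 difference -3.42, SE 0.50, limma adjusted p = 0.000666), the nidogen Nid1 (log2 difference -3.19, SE 0.50, limma adjusted p = 0.00103) and the proteoglycan Agrn (log2 difference -1.79, SE 0.45, limma adjusted p = 0.0125). The collagen receptor Ddr2 rose (log2 difference 2.04, SE 0.39, limma adjusted p = 0.00308), the only receptor of the 8 to pass there.

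In unsorted LCP D10 against D0, 1 enzyme rose and 2 fell, against 3.05 and 4.34% of all genes. They were Tll1 (log2 difference 1.80, SE 0.46, limma adjusted p = 0.0362), Pxdn (log2 difference -2.47, SE 0.47, limma adjusted p = 0.00877) and Colgalt1, which adds sugars to collagen (log2 difference -1.42, SE 0.27, limma adjusted p = 0.00838). Nid2 (log2 difference -2.50, SE 0.36, limma adjusted p = 0.00189) and the receptor chain Itga11 (log2 difference -1.41, SE 0.38, limma adjusted p = 0.046) fell. At D4 Colgalt1 (log2 difference -1.22, SE 0.27, limma adjusted p = 0.0294) and Nid2 (log2 difference -2.22, SE 0.36, limma adjusted p = 0.00637) fell, against 2.29% of all genes lower, and no receptor passed, and at D2 no gene of the 3 lists passed. In sorted against unsorted LCP D10, 1 enzyme was higher and 3 lower, against 4.29 and 1.94% of all genes, the largest being the chaperones Fkbp10 (log2 difference -2.27, SE 0.41, limma adjusted p = 0.0122) and Serpinh1 (log2 difference -2.17, SE 0.53, limma adjusted p = 0.0351), then Bmp1 (log2 difference -1.81, SE 0.47, limma adjusted p = 0.0438). Lamb1 (log2 difference -2.60, SE 0.50, limma adjusted p = 0.0153), Nid1 (log2 difference -2.46, SE 0.50, limma adjusted p = 0.0186) and the receptor chain Itgb1 (log2 difference -1.86, SE 0.48, limma adjusted p = 0.0425) were lower too, and at D0 none of the 3 lists passed.

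Against native cells, Lox, which cross-links fibrillar collagens, was lower in both sorted cultures. In sorted LCP D0 against the Lgr5 sort 0 enzymes were higher and 3 lower, against 3.85 and 7.11% of all genes. Lox had 0.73 and 0.61 TPM in sorted LCP D0, against 14.4 and 12.3 TPM in the Lgr5 sort (log2 difference -3.10, SE 0.53, limma adjusted p = 0.00286), and 0.094 and 0.15 TPM in sorted LCP D10, against 20.5 and 11.1 TPM in the Atoh1 sort (log2 difference -3.85, SE 0.53, limma adjusted p = 0.000885). In sorted LCP D0 the enzymes P4ha3 (log2 difference -3.55, SE 0.81, limma adjusted p = 0.0144) and P3h3 (log2 difference -1.34, SE 0.33, limma adjusted p = 0.0222), the receptor Ddr2 (log2 difference -1.49, SE 0.39, limma adjusted p = 0.0289) and the laminin chain Lama2 (log2 difference -2.44, SE 0.43, limma adjusted p = 0.00313) were also lower, and Nid1 was higher (log2 difference 3.17, SE 0.50, limma adjusted p = 0.00176). In sorted LCP D10, 2 enzymes were higher and 5 lower, against 4.51 and 7.34% of all genes, among them Tll1 (log2 difference 2.69, SE 0.46, limma adjusted p = 0.0035) and Pcolce2 (log2 difference -2.91, SE 0.67, limma adjusted p = 0.0155), with Nid2 lower (log2 difference -1.63, SE 0.36, limma adjusted p = 0.0134), Lama1 higher (log2 difference 1.44, SE 0.39, limma adjusted p = 0.034) and no receptor passing. Outside sorted LCP D10, Lama1 reached 1 TPM only in unsorted LCP D0 replicate 1, at 3.26 TPM. Lama1 thus met the minimum only through sorted LCP D10, which fixes its direction, so its value is a description. Among native sorts, Lamb1 was lower in the Atoh1 sort than over both supporting cell sorts (log2 difference -2.73, SE 0.43, limma adjusted p = 0.0133), and Lama4 was lower in the Lgr5 sort than in the Sox2 sort (log2 difference -2.22, SE 0.36, limma adjusted p = 0.0199), with no enzyme or receptor passing in either.

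Over all 11 comparisons 26 of the 36 collagen genes passed at least once, against 35.6% of all genes, and 10 never did. Of the 42 calls, 4 were of genes that met the minimum only through the higher group. For Col5a3, Col15a1 and Col28a1 among the 26 genes, that was the only call, so their place in the count follows from how genes were chosen. Of the 42, 12 held when only the libraries compared were fitted, 10 without each library in turn, 29 with a 5 TPM filter, 33 with a pseudocount of 0.1, 35 with no filter, 40 with another scaling and 41 with the replicate block. The 5 TPM filter left out the genes of 10 calls.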

How the data were processed

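RNA was measured in 18 libraries, 9 groups of 2. The authors deposited TPM values per gene, 1 file per library; per the submitters' processing notes, STAR, FastQC, Salmon and DESeq2 were named, with the build mm10 and with no versions or roles. Per the labels, cDNA came from 2.5 ng of RNA with SMARTer V4 and ThruPLEX kits. The step from reads to TPM is otherwise not given in the sources used here, and depth is unknown. Genes that reached 1 TPM in 2 or more libraries were fitted with limma 3.58.1 (R 4.3.3) on log2(TPM + 1), with 1 term per group, a trended prior and Benjamini-Hochberg adjustment over all 20463 genes. Python 3.11.15 made the other tables. Gene models were from GENCODE release 21 (GRCm38). Genes were named by rule: the 3 highest by mean TPM in each class of at least 3, all of a smaller class with a mean of at least 1 TPM, and up to 6 called per comparison by size of change. The members and lists were chosen with earlier results of these data known. Within unsorted LCP each replicate number has 1 extraction date in the labels, though that of replicate 1 is later than the sequencing dates given. Same-numbered libraries there deviated together in all 6 pairs of groups (correlations of 0.21 to 0.48), so the numbers were taken to pair those samples. In the other 30 pairs of groups 12 were over 0.1, and pairing there is not shown. The replicate block is 1 term over all 18 libraries. Replicate 2 libraries share 1 sequencing date and replicate 1 libraries have 2 others. In replicate 1 of unsorted LCP, D0, D2 and D4 share 1 of these and D10 has the other. D10 against D0 and against D4 of unsorted LCP, sorted against unsorted LCP D0, and the interaction thus cross sequencing dates within replicate 1. Extraction dates differ between sorted and unsorted LCP in replicate 1, and between the Atoh1 and supporting cell sorts in replicate 2. Between sorted LCP and the native sort set against it, they differ in both replicates. The block takes up none of these differences, and the part of date was not tested. The protocol in the labels with tamoxifen, Sox2-CreER and beta-catenin matches no library title and was not used.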

Additional observations from a re-analysis of the deposited data

How the results depend on the processing

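Counts of collagen genes past the threshold were recomputed under each alternative. For the Atoh1 sort against the Lgr5 and Sox2 sorts the count was 5 with no filter on low values, 5 with the replicate block and 1 with another scaling, against 0. For the Lgr5 against the Sox2 sort it was 0 with a pseudocount of 0.1, 0 with a 5 TPM filter and 0 with only the libraries compared, against 5. For LCP D4 against D0 it was 2 with the pseudocount, 0 with the 5 TPM filter, 2 with the replicate block and 0 with only the libraries compared, against 1. For LCP D10 against D0 it was 2 with no filter, 2 with the 5 TPM filter and 0 with only the libraries compared, against 4, and D10 against D4 gave 0. For sorted LCP D10 against sorted D0 only the libraries compared gave 7, against 11. For sorted against unsorted LCP D10 the replicate block gave 10 and only the libraries compared 0, against 6. For sorted LCP D0 against the Lgr5 sort the pseudocount gave 7, the block 7 and only the libraries compared 0, against 4. For sorted LCP D10 against the Atoh1 sort only the libraries compared gave 6, against 11. The causes were not tested. Leaving out each library gave 0 to 2 genes for the Atoh1 comparison, 1 to 5 for Lgr5 against Sox2, 0 to 0 for D2, 0 to 1 for D4, 1 to 2 for D10, 5 to 9 for sorted D10 against D0, 0 to 1 for sorted against unsorted D0, 1 to 6 at D10, 1 to 3 for sorted D0 against Lgr5, 3 to 7 for sorted D10 against Atoh1 and 0 to 1 for the interaction; the lone sample left in a group is then assumed to vary like the other groups. The replicate block changed no call beyond those given here and in the results. No direction reversed. With 2 libraries per group and no read counts, low genes have no counting error attached.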
